A study of Drosophila melanogaster with 3 samples.

Results

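The 10 genes described here, twi, sna, Mef2, tin, bap, how, mbc, kirre, sns and blow, build the mesoderm of the fly embryo or fuse its myoblasts, and all 10 were found by symbol among the 18164 genes on the chromosome arms of the Ensembl annotation of the dm6 build. They were chosen by name, with earlier results of these data known, so shares above those of all genes are description only. HmgD peaks were assigned to a gene when the summit lay in the gene body or within 5 kb of it. HmgD was mapped by chromatin immunoprecipitation and sequencing (ChIP-seq) in 1 group of 3 biological replicates. Each replicate was whole embryos of both sexes, 0 to 24 h old, from a stable transgenic line of Drosophila melanogaster in which HmgD carries green fluorescent protein (GFP) at its C terminus, and the antibody recognised GFP. There was no second genotype, tissue or time point, so the values below describe where peaks lay, how strong they were within a list and how far the replicates differed. Because whole embryos were pooled, a site occupied in few cells and a site weakly occupied in many cannot be told apart.

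HmgD is an abundant HMG-box protein of early embryonic chromatin that bends DNA and recognises little sequence. In the early embryo, Twist (twi), a basic helix-loop-helix activator, and Snail (sna), a zinc-finger repressor, set up the mesoderm on the ventral side. Downstream of them act the MADS-box factor Mef2, which drives muscle differentiation, and the homeodomain factors Tinman (tin), needed for heart and dorsal mesoderm, and Bagpipe (bap), needed for gut muscle. Held out wings (how) is an RNA-binding protein of the STAR family expressed in mesoderm, muscle and tendon cells. Muscle fibres then form by fusion of founder cells, which carry the immunoglobulin-domain receptor Kirre, with fusion-competent myoblasts, which carry its partner Sticks and stones (sns). Inside the cells, Myoblast city (mbc) activates Rac and Blown fuse (blow) acts on the actin machinery at the site of fusion.

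Sequences at the summits are shown for 6 of the 10 genes, on arms 2L, 3R and X, as examples of peaks that passed the irreproducible discovery rate (IDR) step and of promoter candidates that did not. Those of twi, Mef2, sns and blow are not printed here, although their peaks and candidates are described below. Each runs from 100 bp before to 100 bp after the summit on dm6, read along the gene, and bases in annotated untranslated regions were trimmed off. Capitals mark matches on either strand to 11 words. The Twist words were CATATG and, as a second E-box, CACATG. The Snail word was CAGGTG. The Tinman word was TCAAGTG. The Mef2 site was also searched. The word of the early activator Zelda was CAGGTAG. The Dref word was TATCGATA. The BEAF word, contained in it, was CGATA. The core promoter word known as motif 1 was GGTCACAC. The GAGA word was GAGAG. The TATA word was TATAAA. Overlapping matches run together, and a match is a description of letters, not a site.
tin, IDR peak (chr3R:21376329-21376529, + strand): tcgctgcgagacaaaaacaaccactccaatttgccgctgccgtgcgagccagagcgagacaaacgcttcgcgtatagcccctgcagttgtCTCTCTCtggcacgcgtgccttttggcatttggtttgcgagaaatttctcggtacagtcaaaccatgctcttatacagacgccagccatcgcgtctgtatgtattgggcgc
how, IDR peak (chr3R:22041652-22041852, + strand): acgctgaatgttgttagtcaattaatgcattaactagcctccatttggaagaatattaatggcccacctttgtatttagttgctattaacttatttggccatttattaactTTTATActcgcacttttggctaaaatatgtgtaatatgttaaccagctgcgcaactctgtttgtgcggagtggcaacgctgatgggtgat
mbc, IDR peak (chr3R:23781622-23781749, + strand): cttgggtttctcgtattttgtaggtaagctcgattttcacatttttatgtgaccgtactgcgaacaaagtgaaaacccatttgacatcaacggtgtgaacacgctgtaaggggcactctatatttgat
kirre, IDR peak (chrX:3097156-3097356, + strand): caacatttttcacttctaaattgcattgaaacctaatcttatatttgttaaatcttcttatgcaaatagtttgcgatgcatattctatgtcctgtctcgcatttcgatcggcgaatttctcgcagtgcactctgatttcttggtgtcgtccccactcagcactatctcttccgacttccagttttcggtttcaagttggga
sna, promoter candidate not kept (chr2L:15478261-15478455, - strand): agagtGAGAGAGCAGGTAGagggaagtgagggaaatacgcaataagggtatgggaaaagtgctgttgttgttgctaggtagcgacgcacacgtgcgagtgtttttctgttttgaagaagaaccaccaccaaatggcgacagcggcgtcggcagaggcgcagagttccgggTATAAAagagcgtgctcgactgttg
tin, promoter candidate not kept (chr3R:21378745-21378945, + strand): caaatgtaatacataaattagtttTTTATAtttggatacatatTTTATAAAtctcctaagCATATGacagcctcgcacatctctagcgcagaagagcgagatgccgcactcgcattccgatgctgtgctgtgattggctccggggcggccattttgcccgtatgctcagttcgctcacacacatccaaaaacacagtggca
bap, promoter candidate not kept (chr3R:21388696-21388879, + strand): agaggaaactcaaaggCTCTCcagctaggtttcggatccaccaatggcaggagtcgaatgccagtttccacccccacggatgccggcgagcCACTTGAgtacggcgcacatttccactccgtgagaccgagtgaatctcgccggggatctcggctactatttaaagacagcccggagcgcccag
In these stretches the IDR peak in the tin window held the GAGA word and that of how the TATA word, while the mbc and kirre stretches held no match. The trimmed part of the mbc window held the TATA word. The promoter candidate of sna held the Zelda, GAGA and TATA words, that of tin the first Twist word and the TATA word, and that of bap the Tinman and GAGA words.

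The deposited lists comprised 28193 candidates from replicate 1, 30000 each from replicates 2 and 3 and from the pooled alignments, and 2964 peaks past the IDR step. The IDR peaks were the pooled candidates of highest signal, from 114.7 upward, so a candidate below that signal was not kept. Signal is the authors' own value per peak and is used only to rank peaks within a list. A rank percentile of 100 is the strongest candidate of a list. No read counts are given, and the depth of each replicate is unknown. The candidates were derived with a control file, which was not analysed here.

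IDR peaks lay in the windows of 6 of the 10 genes: Mef2 (4), tin (1), how (2), mbc (2), kirre (5) and blow (1), 15 in all. The windows of twi, sna, bap and sns held none. By the same rule 39.0% of all 18164 genes and 42.5% of the 13945 protein-coding genes had an IDR peak, so 60.0% for the 10 genes is to be read beside their length. Their median length was 28500.5 bp, against 2166 bp for protein-coding genes. Of the 3 genes under 5 kb (sna, tin and bap), 1 had an IDR peak, where the share of protein-coding genes of that length was 38.1%. Both genes of 5 to 20 kb (mbc and blow) had one, beside 55.2%. Of the 5 genes of 20 kb or longer (twi, Mef2, how, kirre and sns), 3 had one, beside 57.0%. Taking each replicate's own 2964 strongest candidates gave 6 genes in every replicate (6.00 ± 0, SD, n = 3), beside 44.7%, 41.4% and 40.3% of protein-coding genes in replicates 1, 2 and 3. The genes were not the same: Mef2, mbc and kirre counted in all 3 replicates, how and blow in replicates 1 and 2, tin in replicates 2 and 3, twi in replicates 1 and 3, and bap in replicate 3.

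The 15 IDR peaks amounted to 2.06 per 100 kb of the 727 kb of windows, beside 2.59 per 100 kb over all protein-coding windows and 2.21 over the arms. The window of kirre makes up more than the other windows together, and without it the density was 3.10 per 100 kb (10 peaks in 323 kb). Pooled candidates, kept or not, came to 151, or 20.8 per 100 kb, beside 25.6 over all protein-coding windows. Without kirre they came to 92, or 28.5 per 100 kb, above that value. When 1 replicate was left out and peaks were taken as the pooled candidates matched among the 2964 strongest of both others, which gives shorter lists of 1658 to 1967 peaks, 3 genes (Mef2, mbc and kirre) held a peak without replicate 1 or without replicate 2, and 5 without replicate 3. The shares of protein-coding genes were then 28.8%, 28.2% and 32.3%.

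**Figure D1:**
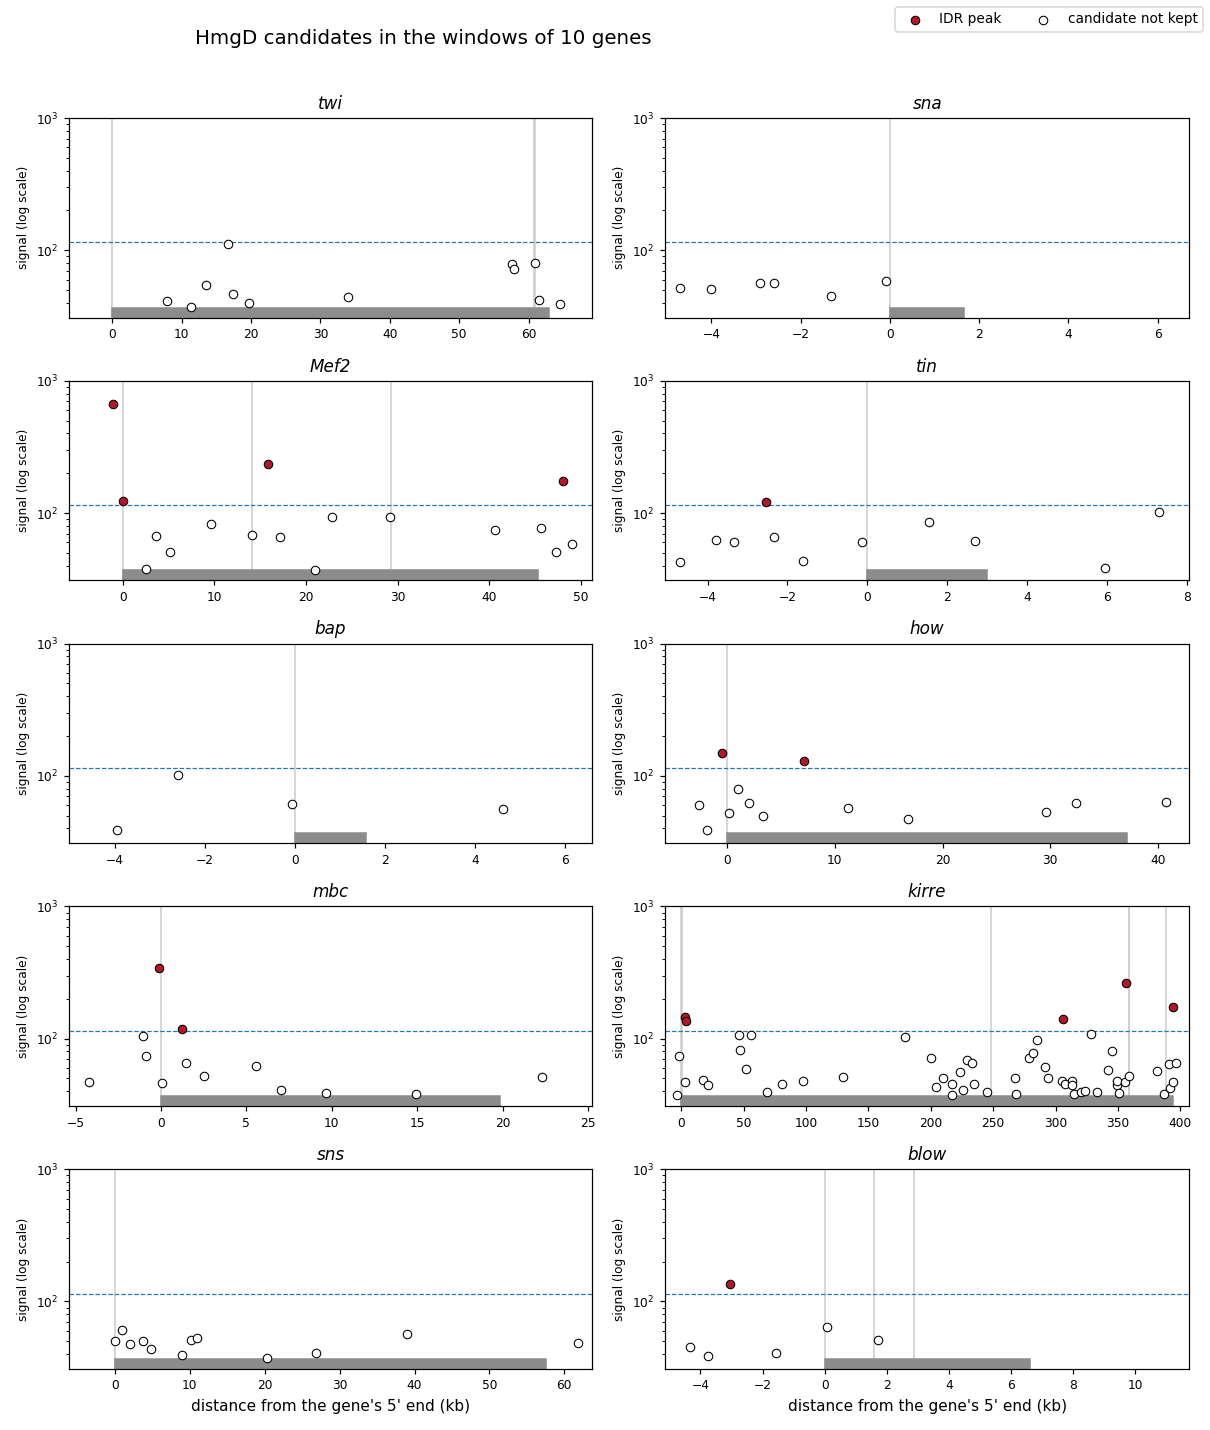
Signal of every pooled candidate (log axis) against its distance in kb from the start of the gene, 1 panel per gene, with IDR peaks filled and other candidates open. The grey bar is the gene body, grey vertical lines are annotated transcription start sites and the dashed line is the lowest kept signal of 114.7; twi, sna, bap and sns have no point above it, and the highest point, at 666, lies just before Mef2.

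Of the 15 peaks, 9 lay nearer to the start of another gene than to any start of the gene in whose window they fell, and 6 lay nearest to an own transcription start site (TSS). Own starts were thus nearest for 40.0% of these pairs of gene and peak, where the share over all 8867 such pairs of protein-coding genes was 30.8%. In 7 of the 9 cases the neighbour's TSS was within 500 bp. Within 500 bp of any annotated TSS lay 9 of the 15 peaks (60.0%), and 71.1% of all IDR peaks. In the gene they were assigned to, 6 summits were intronic, 1 was in an untranslated exon and none was in a coding exon. The other 8 were outside the gene body. Of the 6 intronic summits, 4 lay in kirre. Shares of these positions over all IDR peaks are not given, so these counts for the 15 peaks have no background beside them. The median signal was 147, with 118 the lowest and 666 the highest, and the median over all IDR peaks was 158.

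The twi gene (FBgn0003900, 2R 22985374 to 23048325) held no IDR peak, although its annotated body of 62952 bp, which starts with the long transcript twi-RC, is the second longest of the 10. Its strongest candidate had a signal of 111 and ranked 3145, just below the lowest kept signal of 114.7. That summit lay in an intron of twi-RC, 16707 bp downstream of its start, and nearer to the start of CG9896, 3197 bp away. It stood at percentiles 90.8, 80.2 and 82.1 in replicates 1, 2 and 3 (84.4 ± 5.68, SD, n = 3). The start region of the shorter transcripts twi-RA and twi-RB had a candidate of signal 80.8, rank 5961. Its percentiles were 67.7, 61.9 and 90.9 (73.5 ± 15.3, SD, n = 3), so replicate 3 stood well above the other replicates. Another pair of candidates, of signals 79 and 72, lay about 3 kb before these starts and beside the start of CG42741, at 75 and 294 bp from it.

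The sna gene (FBgn0003448, 2L 15476593 to 15478260) is short, and each of its 6 candidates lay upstream of the start, none inside the gene. The one at the promoter, 95 bp upstream, was the strongest at a signal of 58.8, with percentiles of 79.5, 71.1 and 52.3 (67.6 ± 13.9, SD, n = 3). The other 5, from 1330 to 4708 bp upstream, had signals between 45 and 57. None of these 5 was matched in all 3 replicates. All 6 therefore ranked in the middle of the pooled list, from rank 12108 to rank 21204.

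Mef2 (FBgn0011656, 2R 9913496 to 9958858, minus strand) had 4 IDR peaks, and 1 of them was the strongest of the 15. That peak (2R 9959735 to 9960074) had a signal of 666, ranked 27 of the pooled list, and ranked 17, 31 and 33 in replicates 1, 2 and 3, so all 3 replicates placed it near the top. It lay 1089 bp upstream of the most distal Mef2 start, that of Mef2-RF and Mef2-RH, but only 131 bp upstream of a start of Pal1, a gene for a peptide-amidating enzyme, and inside an intron of a longer Pal1 transcript. The second peak (2R 9942786 to 9943189, signal 237, rank 503) lay in the gene itself, in an untranslated exon 1776 bp downstream of the start of Mef2-RG. No other gene started within 16 kb of it, and its percentiles were 97.3, 97.3 and 98.6 (97.7 ± 0.746, SD, n = 3).

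The third Mef2 peak sat at the start of Mef2-RF and Mef2-RH, 32 bp upstream (2R 9958688 to 9959091, signal 124, rank 2542). The replicates did not rank it alike, with percentiles of 78.8, 94.5 and 47.4 (73.6 ± 24.0, SD, n = 3), the widest spread among the 15 peaks. The fourth (2R 9910643 to 9911046, signal 175) lay beyond the end of Mef2, 48 bp upstream of Etf-QO, a gene of mitochondrial electron transfer, at percentiles of 94.6, 92.5 and 96.8. The start shared by 8 of the 11 transcripts, at 2R 9929615, had a candidate 39 bp upstream with a signal of 94.1 and rank 4380. It had no match in replicate 1 and stood at 91.6 and 84.7 in replicates 2 and 3. The start of Mef2-RG had one of signal 68.5, rank 8613.

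The neighbouring genes tin (FBgn0004110, 3R 21378977 to 21381970) and bap (FBgn0004862, 3R 21388880 to 21390449) had no IDR peak at their own starts. The IDR peak in the tin window (3R 21376227 to 21376630, signal 122, rank 2627) lay 2548 bp upstream of tin in an intron of mod(mdg4), a gene for a family of chromatin proteins, and 972 bp from its nearest annotated start. No candidate of replicate 1 matched it, and it stood at percentiles 88.9 and 96.2 in replicates 2 and 3. The promoter candidates of both genes were alike in the pooled list. That of tin, 132 bp upstream, had a signal of 60.5 and rank 11348, and that of bap, 84 bp upstream, had 61.5 and rank 10937. Both were matched only in replicate 3, at percentiles 74.3 and 81.0.

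The strongest candidate between tin and bap, 2613 bp upstream of bap, had a signal of 102 and rank 3699 and fell in both windows. Its percentiles were 42.1, 77.6 and 93.8 (71.2 ± 26.5, SD, n = 3), a spread in which replicate 3 was highest and replicate 1 lowest. Inside tin, 2 candidates in coding exons, 1539 and 2700 bp from the start, had signals of 86.2 and 61.0.

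The how gene (FBgn0264491, 3R 22042191 to 22079321) had 2 IDR peaks, both nearer to its single annotated start than to that of any other gene. The first (3R 22041550 to 22041953, signal 148, rank 1731) lay 439 bp upstream, at percentiles 93.3, 94.1 and 88.4 (91.9 ± 3.09, SD, n = 3). The second (3R 22049141 to 22049544, signal 130.0, rank 2308) was intronic, 7152 bp downstream, at 91.9, 87.3 and 84.4 (87.9 ± 3.77, SD, n = 3). The ranges of these peaks over the replicates overlapped. The other 11 candidates of the window had signals of at most 79, among them one 184 bp downstream of the start at 51.96.

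Among the fusion genes, mbc (FBgn0015513, 3R 23781765 to 23801634) had the strongest promoter peak of the 10 genes. This peak (3R 23781447 to 23781850) had a signal of 342 and rank 139, and ranked 72, 272 and 596 in replicates 1, 2 and 3, at percentiles of 99.7, 99.1 and 98.0 (99.0 ± 0.875, SD, n = 3). Its summit lay between divergent starts, 116 bp upstream of mbc and 28 bp upstream of Nup98-96, which encodes nuclear pore proteins, so the peak cannot be given to 1 of these genes. The mbc sequence printed above is the part of this interval between the starts that the window covers. A second IDR peak (3R 23782801 to 23783204, signal 118, rank 2787) lay in an intron 1238 bp downstream of the mbc start, at percentiles 89.4, 89.7 and 88.3. It was the weakest of the 15 by signal, with the second smallest spread (SD 0.724, n = 3).

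kirre (FBgn0028369, X 2740384 to 3134532) spans 394149 bp with 6 annotated starts and holds many other genes in its introns. It had 5 IDR peaks and 59 candidates, which is 1.24 and 14.6 per 100 kb. Only 1 of the 5 peaks was nearest to a kirre start, and it was the strongest of them (X 3097054 to 3097457, signal 264, rank 349). It lay in an intron 2294 bp upstream of the start of kirre-RC, with no start of another gene within 29 kb, and stood at percentiles 98.5, 99.0 and 96.3 (98.0 ± 1.44, SD, n = 3). The start of kirre-RC and kirre-RD itself had a candidate of signal 52.1, rank 15667, matched in replicate 2 alone.

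Of the remaining kirre peaks, 2 (signals 147 and 135, X 2743047 to 2743450 and X 2744079 to 2744482) lay near starts of the syntaxin gene Syx4, at 291 and 205 bp. The peak just beyond the end of kirre (X 3134532 to 3134935, signal 175, rank 1147) lay 136 bp upstream of the gene of the Notch receptor, N. The peak at X 3045958 to 3046361 (signal 142, rank 1910) lay far from any start, 53390 bp upstream of kirre-RC and 21322 bp from CG4116, the nearest other gene, at percentiles 89.7, 94.0 and 94.3 (92.7 ± 2.58, SD, n = 3). The rst gene, which encodes a receptor related to Kirre and lies within the kirre body, had no IDR peak within 500 bp of its start. A candidate of signal 65.8 stood 34 bp downstream of it, at percentiles 4.21 and 79.1 in replicates 1 and 3 and unmatched in replicate 2.

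sns (FBgn0024189, 2R 8798489 to 8856091), the receptor of the fusion-competent cells, was the other long gene without an IDR peak. Its 12 candidates were all weak, the strongest having a signal of 61.2 and rank 11066, in an intron 899 bp from the start. The candidate at the start itself, 28 bp upstream, had a signal of 50.05 and rank 17132. It had no match in replicate 1 and stood at percentiles 24.3 and 31.1 in replicates 2 and 3, the lowest of the 10 promoter candidates in the pooled list. The strongest candidate of sns was thus below the strongest of every other window except that of sna, at 58.8. The IDR peak in the window of blow (FBgn0004133, 2R 7580488 to 7587079) lay 3055 bp upstream of blow and 15 bp downstream of the start of scra, the anillin gene (2R 7589932 to 7590335, signal 135, rank 2108). Its percentiles were 91.7, 93.1 and 88.0 (90.9 ± 2.64, SD, n = 3). The starts of blow-RA and blow-RD had candidates of signal 63.5 and 51.3, neither kept.

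All 10 genes had a pooled candidate within 500 bp of an own start, where the share was 56.0% of protein-coding genes and 49.8% of all genes. Only Mef2, how and mbc had an IDR peak there (30.0%), where it was 18.7% of protein-coding and 15.5% of all genes. Any annotated start counted, and twi, Mef2 and blow have 3 each and kirre 6. The shares were not matched for the number of starts. The other 7 promoter candidates had signals from 50.05 at sns to 80.8 at twi. By percentile in the replicates mbc came first, and its lowest value of 98.0 was above the highest of how, 94.1. The values of how overlapped those of Mef2, whose range ran from 47.4 to 94.5. Those of Mef2, twi, sna and blow overlapped one another, and tin, bap and kirre had a single matched replicate each. Among the strongest 2964 candidates of the replicates, promoter peaks were found at how and mbc in replicate 1, at Mef2, how and mbc in replicate 2 and at twi and mbc in replicate 3 (2.33 ± 0.577 genes, SD, n = 3). The shares of protein-coding genes were 20.5%, 17.9% and 16.6% in replicates 1, 2 and 3. Without replicate 1 or without replicate 2 mbc alone of the 10 had a promoter peak, and without replicate 3 how and mbc did. Beside the shares of protein-coding genes, 11.5%, 11.2% and 13.3%, counts of 1, 1 and 2 of 10 are near the background.

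**Figure D2:**
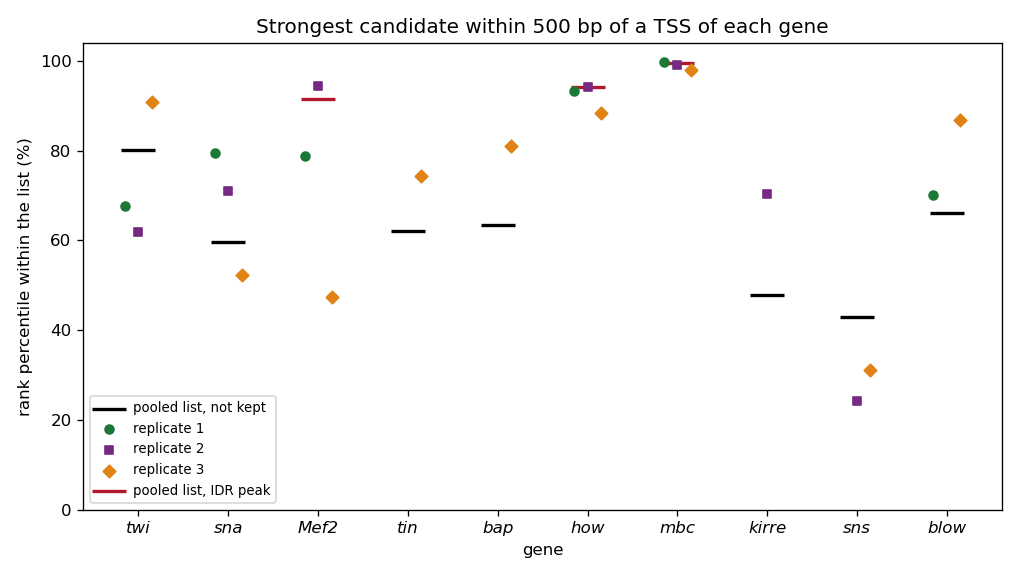
Rank percentile, within each list, of the strongest pooled candidate within 500 bp of a start of each of the 10 genes; horizontal marks are the pooled list (red where the candidate is an IDR peak) and symbols are the 3 replicates, left out where no candidate lay within 200 bp. mbc lies at 98.0 or above in every replicate, while Mef2 spreads from 47.4 to 94.5 and sns lies at or below 42.9 in all lists.

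Across the replicates, 14 of the 15 IDR peaks had a matched candidate in all 3 lists (93.3%, and 95.5% of all IDR peaks). The median of their mean percentiles was 92.5, beside 92.8 for all IDR peaks, and the median SD over replicates was 2.58, beside 3.49. The SD was under 6 for 14 of the 15, the exception being the Mef2 start peak. Of the 15, 7 were among the 2964 strongest of all 3 replicates (46.7%), where the share of all IDR peaks was 44.3%. Of the others, 4 were among the strongest of 2 replicates, 3 of 1 replicate and 1 of none. Of all 151 candidates in the windows, 45 (29.8%) were matched in all 3 replicates, beside 27.2% of the whole pooled list. Selection past the IDR step used these replicates, so high percentiles of kept peaks are no finding.

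**Figure D3:**
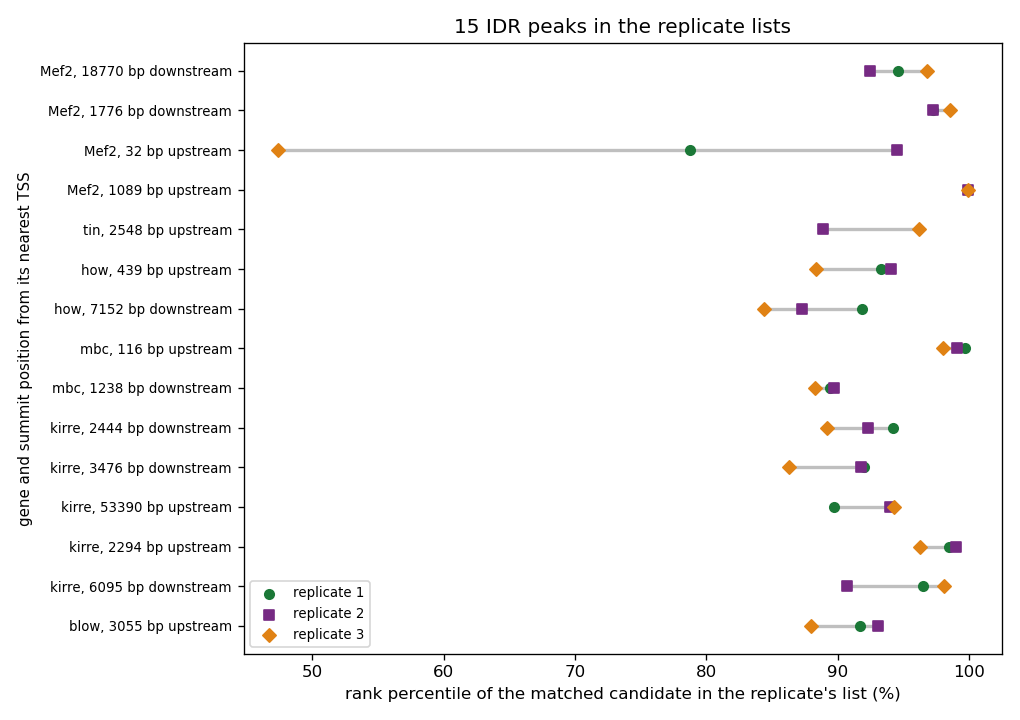
Rank percentile of each of the 15 IDR peaks in the lists of the 3 replicates (symbols), with a grey bar from the lowest to the highest value; peaks are named by gene and by the distance of the summit from the nearest own start. All but 1 peak lie above 84 in each replicate that matched them, and the Mef2 peak 32 bp upstream spreads from 47.4 to 94.5.

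Within 100 bp of the 15 summits, the first Twist word, the Tinman word and the Mef2 site were found at none, where they were at 5.63%, 2.87% and 6.04% of all IDR summits. The second Twist word, CACATG, was at 3 of 15 (beside 8.57% of all IDR summits), namely the second how peak and kirre peaks at X 2744281 and X 3046160. The Snail word was at 1 (6.67%, beside 6.95%), the Mef2 start, and the Zelda word at 1 (6.67%, beside 0.911%), the strong peak beside Pal1. Of the promoter words, the Dref word was at none (beside 8.16% of all IDR summits), the BEAF word at 2 (13.3%, beside 39.0%) and motif 1 at 1 (6.67%, beside 7.15%). The GAGA word was at 4 (26.7%, beside 29.6%) and the TATA word at 3 of 15 (beside 19.3%). With 15 summits, 1 summit is 6.67% of them, and apart from the second Twist word, the Dref word and the BEAF word each count lies within 1 summit of the share over all IDR peaks. With 50 bp on each side of the summit, the second Twist word was at none of the 15, and with 200 bp the first Twist word and the Mef2 site were at 1 each. Shares over all IDR summits are given for 100 bp alone, so these other counts have no background beside them. The GC content around the 15 summits had a median of 39.8%, beside 41.8% for all IDR peaks. It was 48.3% for the candidates of the windows that were not kept, and also 48.3% for all candidates not kept.

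The wider pathway was described with 4 lists of 65 genes in all, also chosen with earlier results of these data known. Of 17 other genes of myoblast fusion, mostly the actin machinery, 8 had an IDR peak at a promoter (47.1%; 37.3% ± 6.79 over the strongest candidates of the replicates, SD, n = 3), beside the 18.7% of protein-coding genes given above. The strongest was at dock, an adaptor protein gene (2L 825719 to 826122, signal 238), 48 bp from its start and 60 bp from that of CG3862. Next were Hem, a subunit of the SCAR actin-regulating complex (3L 22288372 to 22288775, signal 196), and WASp, an activator of actin branching (3R 28831891 to 28832294, signal 187). The Hem peak lay 379 bp from the Hem start and nearer, at 91 bp, to that of IleRS. Of 16 regulators of mesoderm and heart, 6 had a promoter peak (37.5%; 37.5% ± 12.5, SD, n = 3). These were led by the T-box gene mid (2L 5461159 to 5461562, signal 255), the LIM-homeodomain gene tup (2L 18881327 to 18881730, signal 183) and the GATA gene pnr (3R 16025735 to 16026138, signal 163). The tup peak stood at percentiles 44.9, 98.2 and 95.7 in the replicates, low in replicate 1.

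Of 10 muscle identity regulators, 4 had a promoter peak (40.0%; 36.7% ± 15.3, SD, n = 3), the strongest being ap (2R 5726771 to 5727174, signal 219), vg (2R 12884312 to 12884715, signal 140.3) and lbe, which lies close to tin and bap (3R 21446262 to 21446665, signal 132). Of 22 genes of muscle structure, 3 had one (13.6%; 13.6% ± 0, SD, n = 3). These were Msp300 (2L 5108131 to 5108264, signal 307), the titin-like gene sls (3L 2115636 to 2116039, signal 237) and the tropomyosin gene Tm1 (3R 15287723 to 15288126, signal 214). The same lists had an IDR peak anywhere in the window for 12 of 17 fusion genes (70.6%), 10 of 16 mesoderm and heart regulators (62.5%), 5 of 10 identity regulators and 6 of 22 structural genes (27.3%), beside the 42.5% of protein-coding genes. The median lengths of these lists, 5624, 7574, 14976 and 4944 bp in that order, exceed the 2166 bp of protein-coding genes. Of protein-coding genes of 5 to 20 kb 55.2% had such a peak. Of those under 5 kb, where the median of the structural genes falls, 38.1% had one. Differences between these lists were not tested. Without replicate 1 the promoter counts were 5 of 17 fusion genes, 6 of 16 mesoderm and heart regulators, 3 of 10 identity regulators and 3 of 22 structural genes. The share of protein-coding genes was then 11.5%. Without replicate 2 they were 3, 4, 1 and 3 in the same order, beside 11.2%, and without replicate 3 they were 3, 4, 2 and 3, beside 13.3%. Counts of 3 of 17, 1 or 2 of 10 and 3 of 22 are near these shares, and 4 of 16 is above them.

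**Figure D4:**
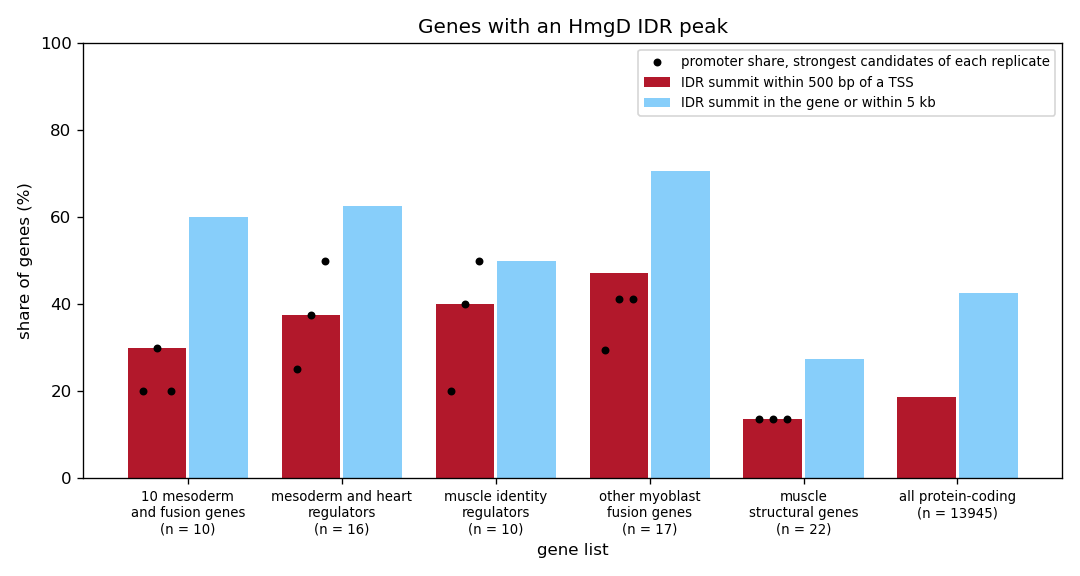
Share of genes (percent) with an IDR summit within 500 bp of a start (red bars) or in the gene or within 5 kb (blue bars), for the 10 genes described, the 4 wider lists and all 13945 protein-coding genes; points are the promoter shares from the 2964 strongest candidates of each of the 3 replicates. The 10 genes stand at 30.0% and 60.0%, the other fusion genes at 47.1% and 70.6%, the structural genes at 13.6% and 27.3%, and all protein-coding genes at 18.7% and 42.5%.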

How the data were processed

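The authors deposited a narrowPeak list of candidates for each of the 3 replicates, one for the pooled alignments and one of peaks past the IDR threshold, on dm6 and dm3. A control file entered the derivation, per the deposited file descriptions. The signal per peak is the authors' deposited value on a scale that differs between lists. Neither aligner, caller nor IDR threshold is given in the sources used; the dm3 lists were not used. Per the labels, chromatin was sonicated to 200 to 800 bp.

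Positions are 1-based on dm6 and were set against Ensembl release 115, transposable elements left out, with sequence from the RefSeq Release 6 genome (Python 3.11.15). A promoter is 500 bp either side of any annotated TSS. A peak was matched to the nearest replicate summit within 200 bp, and neighbouring candidates can share a match. Of the 65 wider-pathway symbols, all matched, 2 of them by synonym. No test was made: there is 1 group, and shares over all genes or peaks stand beside the main counts. Window counting was checked on simulated summits. The named genes are the 10, the 3 strongest of each wider list, and genes whose start is nearer to a peak or whose body holds it. rst, CG3862 and IleRS were named after their values were seen. The 10 genes and the lists were chosen with earlier results of these data known. Peaks are not independent replicates.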

Additional observations from a re-analysis of the deposited data

How the results depend on the processing

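The counts followed the stringency of the peak list. With the 1482 strongest IDR peaks, 3 of the 10 genes held a peak in their window (26.1% of protein-coding genes), with 6 peaks in all (0.826 per 100 kb) and 1 gene with a promoter peak (10.4% of protein-coding genes). The wider lists then had 10 promoter genes of 65. These were 3 of 16 mesoderm and heart regulators, 1 of 10 identity regulators, 3 of 17 other fusion genes and 3 of 22 structural genes. Leaving out each replicate gave 3 to 5 genes with a window peak, 7 to 11 peaks (0.963 to 1.51 per 100 kb), 1 to 2 genes with a promoter peak and 11 to 17 promoter genes over the wider lists (4 to 6 mesoderm and heart regulators, 1 to 3 identity regulators, 3 to 5 fusion genes and 3 structural genes), and a median percentile of 92.0 to 93.2. Gene bodies alone held 7 peaks (1.11 per 100 kb) in 4 genes, beside 9.11% of protein-coding genes, and 33.3% of those of 20 kb or longer, where it was 3 of 5. Densities over the arms or protein-coding windows are not given for the shorter lists or for gene bodies. The 2.21 and 2.59 per 100 kb given above belong to the full IDR list. Without kirre, an alternative added after seeing the data, 10 peaks (3.10 per 100 kb) and 92 candidates remained. In the windows of all 10 genes, kirre included, 74 of the 151 candidates ranked above the middle of the pooled list. A promoter of 250 bp gave 3 of 16 mesoderm and heart regulators, and the most distal start alone gave 1 of 22 structural genes. Both settings can only lower the counts, and no shares of protein-coding genes are given for them. Matches of peak and word numbered 15, and were 7 within 50 bp and 29 within 200 bp of the summit. A wider stretch can only hold more matches, and no shares over all IDR summits are given at 50 or 200 bp. Windows of 2 kb (4 genes, without tin and blow, beside 30.7% of protein-coding genes) and 10 kb (6 genes, beside 55.2%, near the background), promoters of 250 and 1000 bp, and twi taken from its 2 short transcripts, also added later, left the counts over the 10 genes within 1.5 times, and match distances of 100 and 400 bp left the median percentile at 92.5. Causes of these shifts were not tested, beyond shorter lists and windows by construction. The IDR step itself could not be rerun from these files. No paired analysis was possible because the 3 samples form 1 group. Unknown read depth limits what the absence of a peak shows.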

Other observations

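Words were also looked up at the 136 candidates of the windows that were not kept, a set singled out after its values were seen, and the values are given as a description beside the share of all candidates not kept. The Tinman word was at 11 (8.09%, beside 3.82%). These were the promoter candidate of bap, a candidate between tin and bap, 3 in the window of how and the others in the windows of Mef2, kirre and sns. The Zelda word was at 5 (3.68%, beside 1.43%), and 3 of these were among the 6 candidates upstream of sna. The first Twist word was at 6.62% (beside 5.09%), the second at 10.3% (beside 10.1%), the Snail word at 10.3% (beside 10.9%) and the Mef2 site at 4.41% (beside 3.42%). The TATA word was at 14.7% (beside 12.9%), the GAGA word at 19.9% (beside 26.7%), the BEAF word at 19.1% (beside 22.6%), the Dref word at 0.735% (beside 1.42%) and motif 1 at 1.47% (beside 1.5%).

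Several candidates in kirre introns lay just below the lowest kept signal. Beside CG4116 one had a signal of 109 at percentiles 89.1, 80.6 and 87.3, within CG32795 one had 107 at 96.2 and 85.8 in replicates 1 and 2, beside the start of the eye colour gene w one had 106 at 84.4, 89.1 and 77.1, and within CG3588 one had 103 at 93.0, 71.9 and 40.9.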
